A study of Homo sapiens with 22 samples.

Results

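Estrogen receptor alpha (ESR1) was followed at 3 loci of Ishikawa cells, an endometrial adenocarcinoma line, that each hold a site with a called peak in every precipitated library of the study. The sites were all peaks of the 20 deposited lists, read as GRCh37 (hg19), that overlap chr2:70640000-70900000 (TGFA and the DNA upstream of it), chr10:320000-740000 (DIP2C) or chr19:3340000-3490000 (NFIC). Peaks that overlap by at least 1 bp in any of the lists were joined into 1 site. This gave 150 sites from 735 peaks, of 93612 such regions in the genome: 19 sites at TGFA, 77 at DIP2C and 54 at NFIC. The 3 windows were selected on the presence of a peak in all 20 lists, and the sites set beside it on peak presence in wild type with and without ligand. These values, and the rank, width and summit by which both kinds of site are set against each other, are given as description with no test. Tests are between groups of libraries only.

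All clones express ESR1 with a FLAG tag, through which an anti-FLAG antibody precipitated the chromatin. They differ in genotype: ESR1 is wild type, or has the D538G change of its ligand-binding domain. Cells grown without hormone received 10 nM estradiol (E2) or the solvent (0.1% DMSO), in both cases for 1 h. The 4 groups were wild type with DMSO and wild type with E2, with 4 libraries each from 2 clones, and D538G with DMSO and D538G with E2, with 6 libraries each from 3 clones. Each clone gave 2 replicates per treatment, so libraries of 1 clone share their cell line and are not fully independent.

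ESR1 is a ligand-activated transcription factor. When estradiol fills its ligand-binding domain, the receptor binds DNA as a dimer, at estrogen response elements or through other factors, mostly at enhancers far from the genes they control. D538G is a recurrent substitution in tumors that lets the receptor take its active shape without hormone. TGFA encodes transforming growth factor alpha, a ligand of the epidermal growth factor receptor and a growth signal of the uterine epithelium. NFIC encodes a DNA-binding protein of the nuclear factor I family. DIP2C encodes a member of the disco-interacting protein family, whose molecular role is less well known. In the gene order of GRCh38.p14, TGFA lies between FAM136A and ADD2, NFIC between CELF5 and SMIM24, and DIP2C next to ZMYND11. Coordinates of that assembly were not used, so no site was placed in an exon, intron or promoter.

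The lists held from 45 to 54903 peaks, and the read depth behind them is unknown. Fewer peaks through fewer reads, weaker enrichment or less binding cannot be told apart from a peak list. The wild-type DMSO replicate 1 lists were far shorter than the rest, with 51 peaks in clone 1 and 45 in clone 2, and median peak widths of 129 and 141 bp against 292.5 to 476 bp in the other 18 lists. The list labelled D538G clone 2 replicate 1 E2 has Ctl in every peak name, as do the 5 replicate 1 DMSO lists. The DMSO and E2 lists of D538G clones 1 and 2, replicate 1, have Input in every peak name. Some results are given without the 2 short lists, or without the D538G clone 2 replicate 1 pair, below or in the closing section. The other lists named here were left out only 1 at a time, or with all replicate 1 lists where values are given within replicate 2.

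At TGFA the always-bound site spanned chr2:70842805-70845341 (2537 bp), at DIP2C chr10:549538-554528 (4991 bp) and at NFIC chr19:3386524-3390835 (4312 bp). Sites are numbered here from the low to the high coordinate of each window, which makes these TGFA site 18, DIP2C site 41 and NFIC site 19. In the genome 15 regions had a peak in all 20 lists. Ordered by the median over libraries of their percentile rank, where the peak with the highest signal value of a list is at 100, the NFIC site was 1st of the 15 at 99.5, the TGFA site 4th at 98.9 and the DIP2C site 5th at 98.6.

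The short lists set how few regions qualify. The nearest sites below the limit in these windows were DIP2C site 31 (chr10:481342-483606) and NFIC site 18 (chr19:3384328-3385805), with peaks in 18 lists each. Both were missing only from the wild-type DMSO replicate 1 lists. TGFA site 12 (chr2:70779694-70782150) followed with 17 lists, missing from the same 2 and from D538G clone 2 replicate 2 E2. Without the 2 short lists, 329 regions of the genome were in all 18 others, and 5 of these lay in the windows: the 3 always-bound sites, DIP2C site 31 and NFIC site 18.

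Each always-bound site was a short core shared by every library inside a wider region that was not. At TGFA the bases under a peak in all 20 libraries were chr2:70843426-70843696, which is 271 bp or 10.7% of the site. At DIP2C they were chr10:552758-553112, 355 bp or 7.11%. At NFIC they were chr19:3390001-3390208, 208 bp or 4.82%. The 2 short wild-type DMSO lists set these limits. Without them, the bases shared by the other 18 libraries were chr2:70843259-70843826 (568 bp, 22.4% of the site) at TGFA, chr10:552597-553583 (987 bp, 19.8%) at DIP2C and chr19:3389919-3390482 (564 bp, 13.1%) at NFIC. Bases covered in all 4 wild-type DMSO libraries numbered 271, 355 and 208 at TGFA, DIP2C and NFIC, and in the 2 longer ones 568, 1723 and 1046. Bases covered in all 4 wild-type E2 libraries numbered 957, 2754 and 1572. In D538G they numbered 926, 1140 and 779 with DMSO, and 955, 1116 and 1393 with E2.

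**Figure D1:**
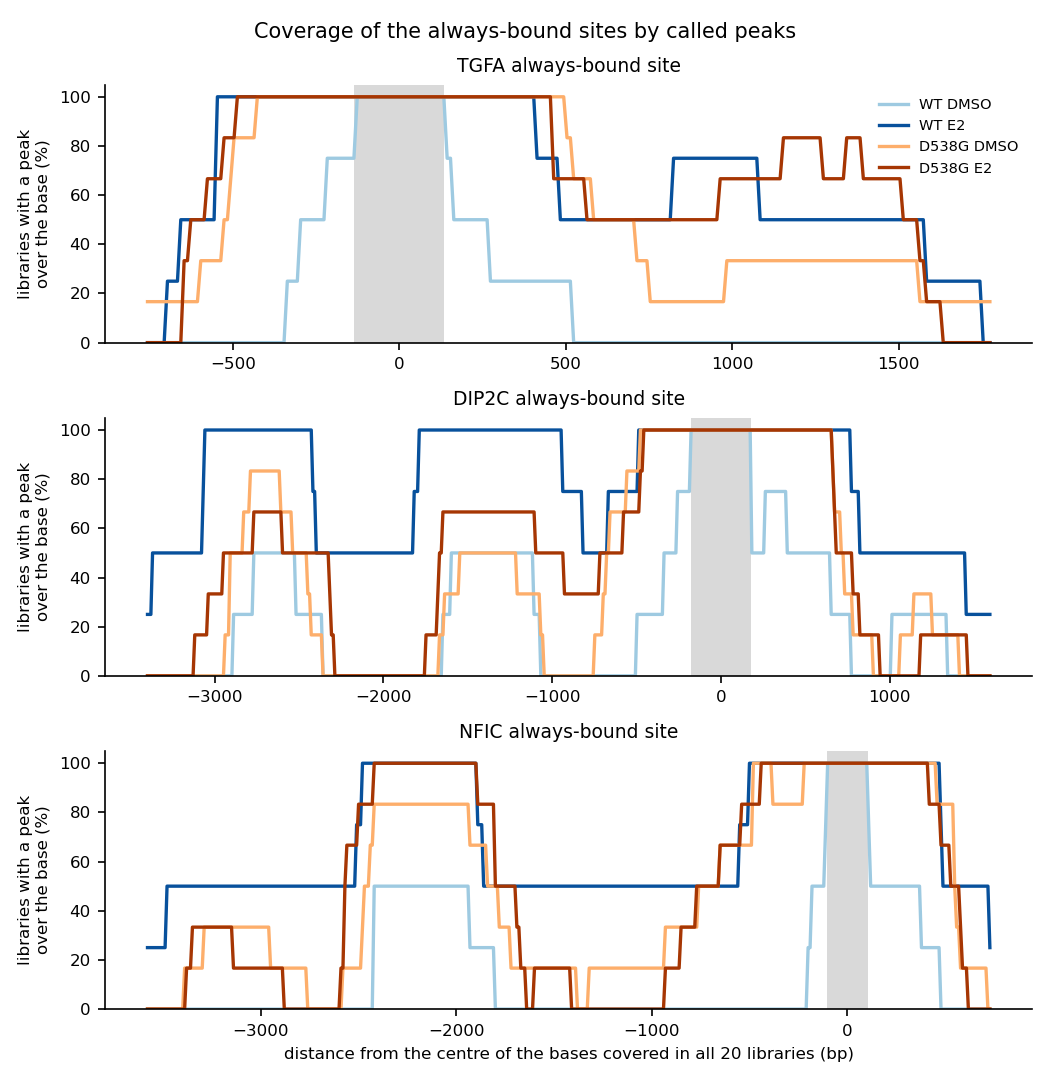
Share of the libraries of each group with a peak over each base of the 3 always-bound sites (vertical axis, percent; 4 wild-type and 6 D538G libraries per group), against the distance in bp from the centre of the bases covered in all 20 libraries (grey band). DIP2C and NFIC have further covered stretches to the left of the band, which wild-type DMSO libraries cover in 2 of 4 cases.

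The TGFA site had 1 main summit. The strongest peak of each library had its summit within the 271 bp core in 20 of 20 libraries, with an SD of 65.1 bp. A further group of summits, 1436 bp to the right of the core centre, was called apart from the main peak in 4 libraries (1 D538G DMSO and 3 D538G E2), and another, at 1008.5 bp, in 2. Elsewhere the widest peaks ran over this stretch without a separate summit there.

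The DIP2C site held 3 recurrent summits. The core summit, with a median position of chr10:552922, was called in all 20 libraries. A left one at chr10:550251 was under a peak in 15 libraries. In wild type these were 2 of 4 with DMSO and 4 of 4 with E2, and in D538G 5 of 6 and 4 of 6. Between them, position chr10:551515 was under a peak in 13 libraries, in the same order 2 of 4, 4 of 4, 3 of 6 and 4 of 6. Both short wild-type DMSO lists lacked the left 2 positions. In the 2 wild-type E2 replicate 2 libraries the whole site was 1 peak, of 4966 bp in clone 1 and 4845 bp in clone 2, while both wild-type E2 replicate 1 libraries called it as 3 peaks. The strongest peak sat in the core in 18 of 20 libraries. It lay at the left summit in D538G clone 2 replicate 1 E2 and D538G clone 3 replicate 1 E2, which gives the summit an SD of 822 bp over libraries. With the peak of the highest −log10 p in place of the highest signal value the SD was 23.1 bp.

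At NFIC 2 summits recurred. The right one, at chr19:3390152, was under a peak in all 20 libraries, but was called as a summit in 18, with 2 of 4 wild-type E2 libraries. Counted by summit clusters within 200 bp in place of merged peaks, NFIC therefore had no site in all 20 lists, while TGFA and DIP2C kept 1 each. The left one, at chr19:3387963, was under a peak in 17 libraries. In wild type these were 2 of 4 with DMSO and 4 of 4 with E2, and in D538G 5 of 6 and 6 of 6. It was missing from the 2 short lists and from D538G clone 2 replicate 1 DMSO. The strongest peak had its summit in the core in 15 of 20 libraries, and in the other 5 at the left position (SD over libraries 974 bp). Those 5 were both wild-type E2 replicate 2 libraries, D538G clone 1 replicate 2 DMSO and both D538G clone 3 E2 libraries. The 2 wild-type E2 replicate 2 libraries again called the whole site as 1 peak, of 4312 and 4216 bp.

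Width at each always-bound site was then compared between groups of libraries, which the choice of sites did not do. In wild type with DMSO the strongest TGFA peak was 379, 864, 271 and 568 bp wide (clone 1 replicates 1 and 2, then clone 2 replicates 1 and 2). With E2 it was 1025, 2451, 958 and 2243 bp in the same order. In D538G with DMSO its lowest, median and highest widths were 951, 1158.5 and 2537 bp, and with E2 959, 1438 and 2155 bp. All 4 wild-type DMSO peaks were narrower than every peak of the other 3 groups. Median peak widths of the whole wild-type DMSO lists ran from 129 to 393 bp, and those of the other groups from 292.5 to 476 bp. How many other regions of the genome show the same order of widths was not counted, so it is not read as particular to this site.

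At NFIC the wild-type DMSO peaks were 216, 678, 219 and 564 bp wide in that order, and the wild-type E2 peaks 1041, 4312, 981 and 4216 bp. The D538G DMSO peaks ran from 770 bp through a median of 1120 to 1515 bp, and the D538G E2 peaks from 869 through 965 to 1512 bp. Wild type with DMSO again lay below the other groups without overlap, which was likewise not counted over other regions. At DIP2C the wild-type DMSO peaks were 358, 1268, 440 and 987 bp wide and the wild-type E2 peaks 1490, 4966, 1265 and 4845 bp. The D538G DMSO peaks ran from 1147 through 1392 to 1644 bp, and the D538G E2 peaks from 728 through 1136 to 2456 bp. Here wild-type clone 1 replicate 2 DMSO, at 1268 bp, overlapped all 3 other groups, and clone 2 replicate 2 DMSO, at 987 bp, overlapped D538G with E2. The D538G E2 peaks narrower than 987 bp, of 831 bp in clone 2 replicate 1 and 728 bp in clone 3 replicate 1, were at the left summit. The wild-type peak of 987 bp was in the core.

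**Figure D2:**
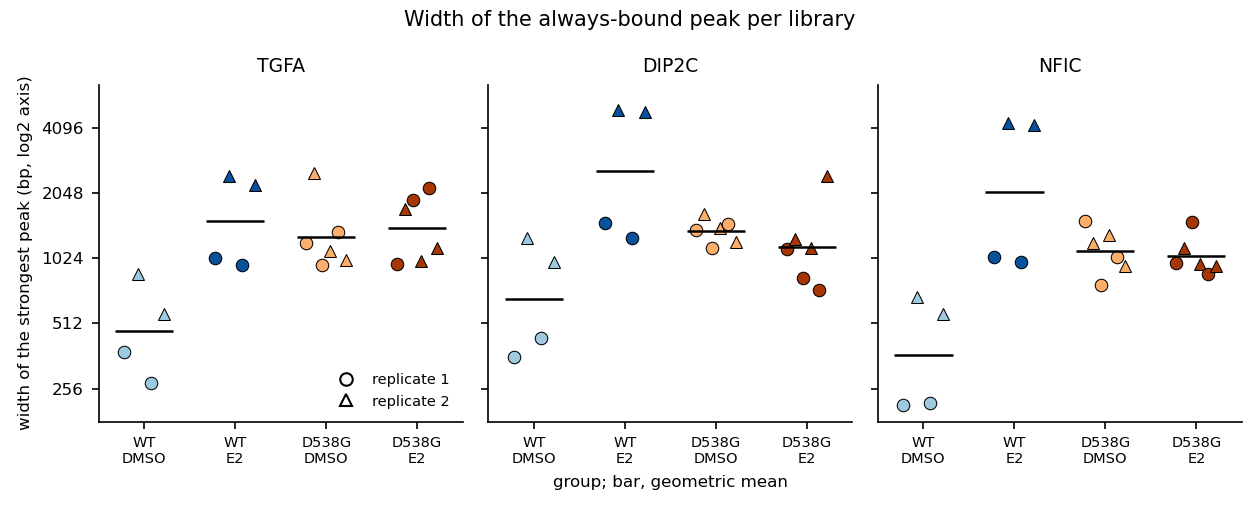
Width in bp (log2 axis) of the strongest peak of each library at the 3 always-bound sites, by group; circles are replicate 1, triangles replicate 2, bars geometric means. The wild-type DMSO peaks lie lowest at TGFA and NFIC (271 to 864 and 216 to 678 bp), and the 2 wild-type E2 replicate 2 peaks lie highest at DIP2C and NFIC (4216 to 4966 bp).

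Under DMSO, D538G libraries had the wider TGFA peak, by 1.43 on the log2 scale over wild type (means 10.32 ± 0.52, SD, n = 6, and 8.89 ± 0.72, SD, n = 4; exact two-sided permutation test, p = 0.00476, the smallest this design allows; adjusted over the 12 width tests, p = 0.0286). The NFIC peak was 1.59 wider (10.11 ± 0.35, n = 6, and 8.52 ± 0.88, n = 4; exact permutation p = 0.00476, adjusted p = 0.0286). These are geometric mean ratios of 2.70 and 3.01. Both calls rested on few libraries and sat at the smallest p for 6 libraries against 4, so a smaller design can lose them by number alone. The tests took each library as a unit, though genotype differs only between clones and libraries of 1 clone are not fully independent. With the clone as unit, 3 against 2 could not pass the threshold, so these p-values do not measure the spread between clones. Without the 2 short wild-type DMSO lists the differences were smaller, at 0.87 and 0.84 (exact permutation test, adjusted p = 0.267 and 0.248). So few wild-type libraries could hardly pass the adjustment, so only the size of the difference is read from this. Leaving out wild-type clone 1 replicate 1, clone 2 replicate 1 or clone 2 replicate 2 DMSO alone brought the adjusted exact p to 0.0714 at both sites, with differences of 1.33, 1.16 and 1.52 at TGFA and 1.33, 1.34 and 1.80 at NFIC. The unadjusted exact permutation p was then 0.0119 at both sites, the smallest the reduced design allows.

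Peaks of all kinds were narrower in the short lists, and with each width divided by the median width of its list the differences were 0.71 at TGFA and 0.86 at NFIC (exact permutation test, adjusted p = 0.0571 for each). Within replicate number 1 they were 1.85 and 2.29, and within replicate number 2 they were 1.01 and 0.88. The within-replicate designs, with 3 libraries against 2, cannot go below an exact permutation p of 0.1. The part of list length in the width was not tested.

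No other width test passed the adjusted threshold. Under DMSO the DIP2C peak of D538G exceeded that of wild type by 1.04 on the log2 scale (exact permutation p = 0.0143, adjusted p = 0.0571), and passed without wild-type clone 1 replicate 2 DMSO (1.35, adjusted exact p = 0.0476). E2 against DMSO in wild type gave 1.69 at TGFA, 1.96 at DIP2C and 2.50 at NFIC, with wider peaks under E2 in 4 of 4 pairs at each site (exact permutation p = 0.0286, 0.0571 and 0.0286; adjusted p = 0.0686, 0.0929 and 0.0686; the smallest p for 4 against 4 is 0.0286). In D538G the same differences were 0.14, −0.24 and −0.08, wider under E2 in 3, 1 and 2 of 6 pairs (exact permutation test, adjusted p = 0.690, 0.508 and 0.690). Under E2, D538G against wild type gave −0.12, −1.17 and −0.99 (adjusted exact p = 0.690, 0.0929 and 0.0929). Without D538G clone 3 replicate 2 E2, which has the widest DIP2C peak of its group, the DIP2C differences were −0.46 for E2 against DMSO in D538G and −1.38 for D538G against wild type under E2, and both passed (adjusted exact permutation p = 0.0364 and 0.0317). The narrowest D538G E2 peaks there, of 831 and 728 bp, were at the left summit and not in the core. With all libraries and the peak of the highest −log10 p, the E2 difference in D538G was 0.22. D538G against wild type under E2 stayed negative under the other alternatives, from −1.69 to −0.64. Whether the E2 effect on width differed between genotypes was not tested.

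The always-bound sites were next set beside their neighbours in the same window and library, which describes what the choice of sites already favours. The always-bound peak ranked above every neighbour of its window in 12 of 17 libraries at TGFA, 12 of 18 at DIP2C and 14 of 18 at NFIC. The remaining 3, 2 and 2 libraries had no neighbour at all. Ranked by −log10 p it came first in 14, 16 and 17 libraries. It was the widest peak of the window in 8, 15 and 9 of them, so at TGFA and NFIC it was first by rank more often than by width. Over libraries, the median percentile of the neighbours was 56.1 at TGFA, 53.7 at DIP2C and 55.8 at NFIC.

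Rank was most even at DIP2C. There the always-bound peak never fell below the 92.6th percentile of its list, against 73.3 at TGFA and 64.4 at NFIC. Those low points were in wild-type clone 2 replicate 1 DMSO, where a list of 45 peaks allows only coarse ranks. Outside these, the TGFA peak was at 89.3 in wild-type clone 2 replicate 2 DMSO, a list of 1080 peaks, at 90.3 in D538G clone 1 replicate 2 DMSO and at 90.5 in D538G clone 3 replicate 1 E2. In the D538G libraries of these, 4 and 1 TGFA neighbours ranked above it. Outside the 2 short lists the NFIC peak never fell below 93.7, its value in wild-type clone 2 replicate 2 DMSO. That is above the DIP2C low of 92.6, which was in D538G clone 3 replicate 1 E2.

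**Figure D3:**
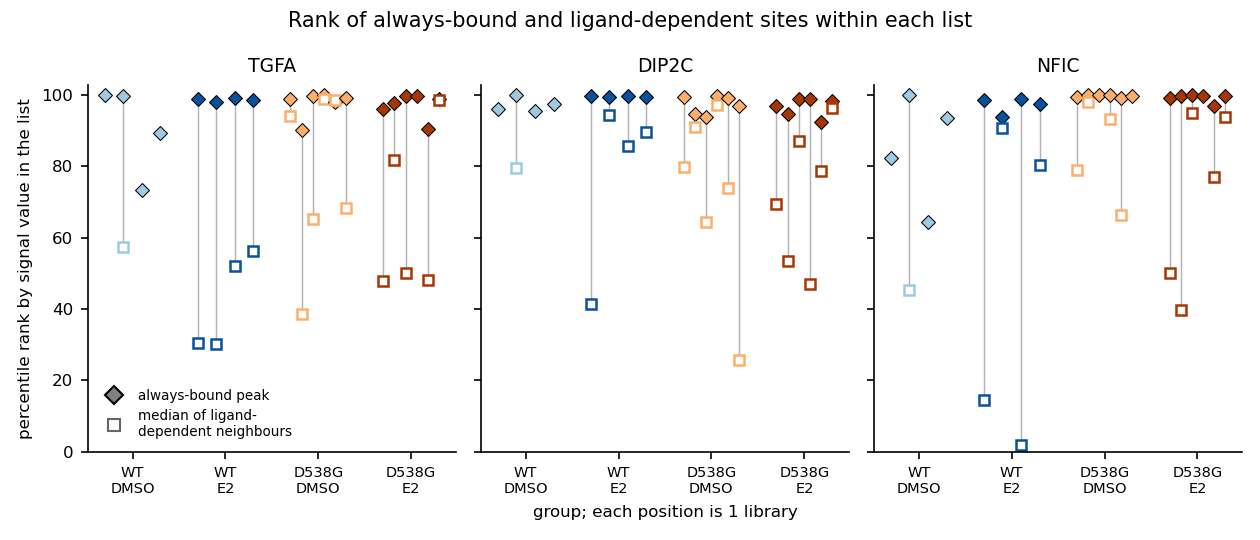
Percentile rank by signal value within the list (100 is the strongest peak) of the always-bound peak (diamonds) and the median of the ligand-dependent neighbours of the same window (squares), joined for each library; libraries without a square had no such neighbour. Outside the wild-type DMSO group the always-bound peaks lie between 90.3 and 100, while the squares spread from 1.88 to 99.0.

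Ligand-dependent neighbours were sites with a peak in at least 3 of 4 wild-type E2 libraries and at most 1 of 4 wild-type DMSO libraries. There were 12: 3 at TGFA, 7 at DIP2C and 2 at NFIC. The 2 short wild-type DMSO lists bound no neighbour, so the DMSO limit rests on the other 2, of 29118 and 1080 peaks. The list of 29118 peaks had a peak at 5 of the 12. The name of the class therefore stands for this rule and not for absence of binding without ligand. A further 4 sites met the E2 limit and were bound in 2 wild-type DMSO libraries, 5 were seen in at least 3 D538G and no wild-type library, 66 were in 1 library each and 60 were none of these. The sites just outside the E2 limit, with 2 wild-type E2 libraries, included DIP2C site 13 (12 lists in all) and NFIC site 10 (11). Those just outside the DMSO limit were TGFA site 12, DIP2C site 31 and NFIC sites 18 and 32.

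At TGFA and DIP2C the ligand-dependent sites nearest the always-bound one were in more lists than the more distant ones. TGFA site 14 (chr2:70823349-70824608) lay 18196 bp to the left of the always-bound site and had peaks in 16 lists. In wild type these were 1 of 4 with DMSO and 4 of 4 with E2, and in D538G 6 of 6 and 5 of 6. DIP2C site 48 (chr10:562818-564645), 8289 bp to the right, had peaks in 0 of 4, 4 of 4, 6 of 6 and 6 of 6. DIP2C site 49 (chr10:564921-566937), 10392 bp away, had 1 of 4, 4 of 4, 5 of 6 and 6 of 6. NFIC sites 23 (chr19:3396937-3399124) and 26 (chr19:3403219-3405469), 6101 and 12383 bp away, each had 1 of 4, 4 of 4, 4 of 6 and 5 of 6.

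Their ranks were lower than those of the always-bound sites, to different degrees. DIP2C sites 48 and 49 had median percentiles of 94.1 and 93.5, TGFA site 14 of 89.5, and NFIC sites 26 and 23 of 83.9 and 68.9. The lowest values were wide apart from these medians: DIP2C site 48 was at the 25.8th percentile in D538G clone 3 replicate 2 DMSO, a list of 1621 peaks, and between 82.0 and 99.5 in its other 15 libraries.

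The more distant ligand-dependent sites were in fewer lists. TGFA sites 3 (chr2:70736715-70737180) and 4 (chr2:70740678-70741346), 105624 and 101458 bp from the always-bound site, were in 6 and 7 lists at median percentiles of 30.2 and 24.6. DIP2C site 71 (chr10:688171-688788) was in 3 of 4 wild-type E2 libraries and in 1 of 12 D538G libraries. DIP2C sites 54 (chr10:581547-582301) and 75 (chr10:733494-734474) were in 11 and 10 lists, at median percentiles of 62.3 and 82.2. The other 2 of the 7 DIP2C sites of this class were in 14 and 9 lists.

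The 4 sites that wild-type libraries bound with E2 and, in the 2 longer lists, with DMSO ranked unevenly: NFIC site 18 and DIP2C site 31 came close to the always-bound site of their window, TGFA site 12 and NFIC site 32 did not. NFIC site 18 lay only 718 bp to the left of the always-bound site and had a median percentile of 98.3, a median width of 745 bp and a summit SD of 13.2 bp over its 18 libraries. DIP2C site 31 had a median percentile of 97.6 and a summit SD of 33.4 bp, and TGFA site 12, 60654 bp from the always-bound site, a median percentile of 83.8 and a median width of 1227 bp. NFIC site 32 (chr19:3428302-3429179), in 15 lists, had a median percentile of 82.0. In wild type NFIC site 18 was at the 51.6th and 58.7th percentiles in its 2 DMSO lists and between 91.5 and 98.6 in the 4 E2 lists.

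Summits at the most shared ligand-dependent sites were tighter than at the always-bound site of the same window. Their SD over libraries was 26.9 bp at TGFA site 14, 17.7 and 19.7 bp at DIP2C sites 48 and 49, and 249 and 327 bp at NFIC sites 23 and 26. Against these stand 65.1, 822 and 974 bp at the TGFA, DIP2C and NFIC always-bound sites. In the genome the median SD was 36.7 bp for the 15 always-bound regions and 40.2 bp for the 3495 ligand-dependent regions in at least 10 lists, and the TGFA, DIP2C and NFIC sites lay above that of their class. For DIP2C this rests on the 2 libraries whose strongest peak was the left summit: with the peak of the highest −log10 p its SD was 23.1 bp, below the class median and near sites 48 and 49. For NFIC it was 793 bp by that measure, and for sites 23 and 26 it was 20.1 and 309 bp. Median peak width was 840.5 bp at TGFA site 14, 714 and 403 bp at DIP2C sites 48 and 49, and 469 and 1693.5 bp at NFIC sites 23 and 26. The always-bound sites had 1066.5, 1258 and 976 bp in the same order of loci, so NFIC site 26 was the wider of its pair.

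**Figure D4:**
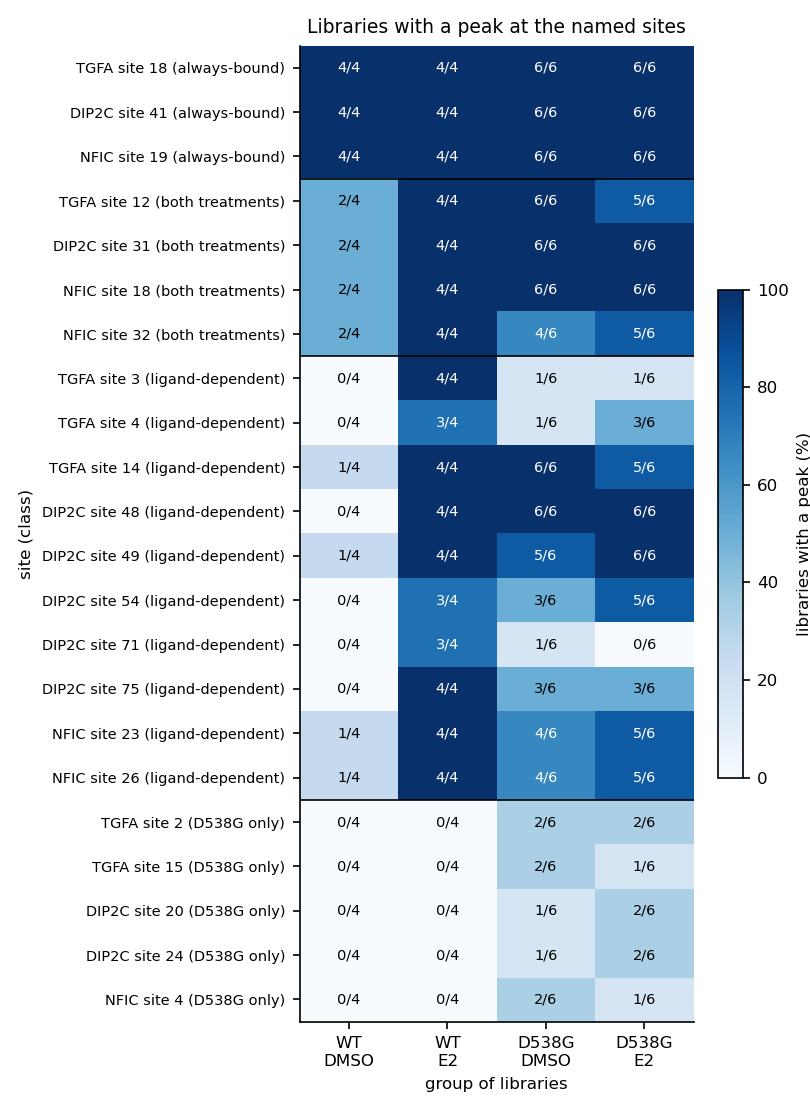
Number of libraries with a peak, of all libraries of the group, at the named sites of the 3 windows; color gives the same as a percentage. The 3 always-bound sites are full in all groups by choice, the ligand-dependent sites run from 0 or 1 of 4 in wild type with DMSO to between 1 and 6 of 6 in D538G with DMSO.

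The classes used wild-type libraries only, so the D538G libraries show how the same sites fared with the substitution. With DMSO, D538G libraries bound 56.9% ± 29.1 (SD, n = 6) of the 12 ligand-dependent neighbours. By library these were 8 and 12 of 12 in clone 1, 4 and 8 in clone 2, and 7 and 2 in clone 3 (replicates 1 and 2). The highest was the 50382-peak list of clone 1 replicate 2 and the lowest the 1621-peak list of clone 3 replicate 2. With E2, D538G libraries bound 66.7% ± 26.9 (SD, n = 6), or 9, 7, 10, 2, 11 and 9 of 12 in the same order of clones and replicates.

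All 12 had a peak in at least 1 D538G DMSO library, and 8 had one in at least 3 of 6. Over the 6077 regions of the genome that meet the same class rule, D538G DMSO libraries bound 44.7% ± 18.3 and D538G E2 libraries 62.8% ± 25.6 (SD, n = 6 each). Of those 6077 regions, 52.2% were in at least 3 D538G DMSO lists, and 1339 regions were in none. Whether the 12 neighbours differ from the genome in having a peak in at least 1 D538G DMSO library was not tested. Set against the genome share of the same library, the neighbours' share was higher in 5 of 6 D538G DMSO libraries and lower in clone 2 replicate 1 (33.3% against 38.4%), and higher in 3 of 6 D538G E2 libraries. The largest gaps under DMSO were in clone 1 replicate 2 (100% against 71.4%) and clone 2 replicate 2 (66.7% against 42.8%). With 12 sites, 1 site is 8.33% of a library's share, and the difference was not tested. The D538G DMSO and E2 shares were not tested against each other. Wild-type DMSO libraries, which the class rule used, bound 0, 5, 0 and 0 of the 12.

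The 3 windows held 5 sites seen in D538G only, and the number of such regions in the genome was not counted. TGFA sites 2 (chr2:70716205-70716667) and 15 (chr2:70834195-70834732), DIP2C sites 20 (chr10:420312-420616) and 24 (chr10:437174-437738) and NFIC site 4 (chr19:3346491-3346991) were each in 3 or 4 of 12 D538G libraries. Their median percentiles ran from 22.3 to 43.0, except for DIP2C site 24 at 91.6. Such sites had 1 or 2 D538G DMSO libraries each.

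The number of neighbours of any class bound per library was 0 in the 2 shortest lists, and at DIP2C it was highest in the 3 longest (40, 38 and 33). In wild type the TGFA window had 0, 5, 0 and 1 bound neighbours with DMSO and 4, 9, 3 and 8 with E2 (clone 1 replicates 1 and 2, then clone 2). The DIP2C window had 0, 9, 0 and 1 with DMSO and 8, 32, 4 and 23 with E2. The NFIC window had 0, 18, 0 and 2 with DMSO and 4, 31, 4 and 22 with E2. More neighbours were bound under E2 in 4 of 4 pairs at each locus, though the groups overlapped through clone 1 replicate 2 DMSO, a list of 29118 peaks.

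**Figure D5:**
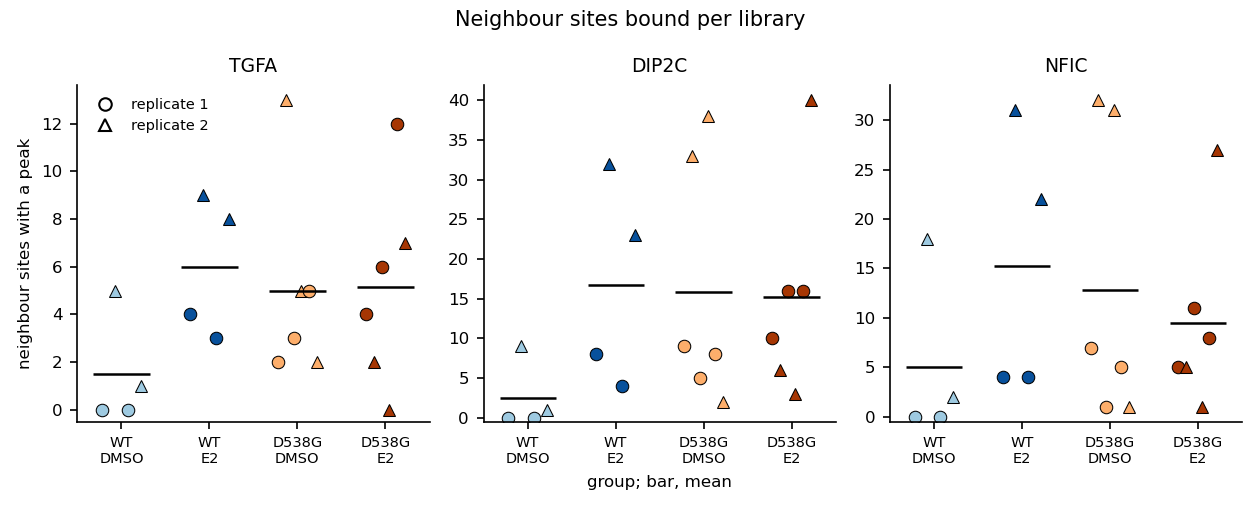
Number of neighbour sites with a peak in each library (points; circles, replicate 1; triangles, replicate 2) and group means (bars) in the TGFA, DIP2C and NFIC windows. Wild-type DMSO libraries are lowest on average, but every group spans a wide range, up to 40 in 1 D538G E2 library at DIP2C.

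The mean gain with E2 in wild type was 4.5 sites at TGFA, 14.25 at DIP2C and 10.25 at NFIC. These gains did not pass the threshold (exact two-sided permutation p = 0.0857, 0.0857 and 0.171, and 0.571 for each after adjustment over 15 tests). The test did not use the pairs, and its smallest p for 4 against 4 is 0.0286. So few libraries could hardly pass the adjustment, so no lack of an effect is read from this. In D538G the number bound ran from 2 to 13 with DMSO and 0 to 12 with E2 at TGFA, from 2 to 38 and 3 to 40 at DIP2C, and from 1 to 32 and 1 to 27 at NFIC. The mean E2-minus-DMSO differences there were 0.17, −0.67 and −3.33 (exact permutation test, adjusted p = 1, 1 and 0.994), with more under E2 in 4, 4 and 3 of 6 pairs. The signs of these 3 differences changed with a single library and with scaling by list length.

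D538G against wild type under DMSO gave 3.50, 13.3 and 7.83 more neighbours at TGFA, DIP2C and NFIC (exact permutation test, adjusted p = 0.571, 0.571 and 0.587). Under E2 it gave −0.83, −1.58 and −5.75 (adjusted exact p = 0.994, 0.995 and 0.686). The E2 effect differed between genotypes by −4.33, −14.9 and −13.6 sites, in the direction of a smaller gain in D538G (exact permutation of genotype over the 10 pairs, adjusted p = 0.587 for each). Per 1000 peaks of the list, the wild-type E2 gains were 0.11, 0.52 and 0.07 neighbours, and D538G against wild type under DMSO was 0.22, 0.58 and −0.10 (exact permutation test, adjusted p from 0.571 to 0.976).

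Replicate number divided the lists, and the within-replicate values were as follows. The wild-type E2 gain was 3.50, 6 and 4 sites at TGFA, DIP2C and NFIC within replicate 1, and 5.50, 22.5 and 16.5 within replicate 2 (exact permutation p = 0.333 for each, the smallest that 2 against 2 allow). D538G against wild type under DMSO was 3.33, 7.33 and 4.33 within replicate 1, and 3.67, 19.3 and 11.3 within replicate 2. D538G against wild type under E2 was 3.83, 8 and 4 within replicate 1 but −5.50, −11.2 and −15.5 within replicate 2, so the pooled sign was that of replicate 2.

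Each region of the genome was finally tested for a different number of bound libraries (Fisher's exact test, two-sided, Benjamini-Hochberg over all regions tested). After adjustment at 0.05 none of the regions was called, in any of the 4 comparisons (0% of those tested in each). With 4 libraries against 4 the smallest unadjusted p is 0.0286, which limits what adjustment over so many regions can leave. Counts at an unadjusted p under 0.05 are therefore given with those of all regions. For E2 against DMSO in wild type, 3 of 59 sites tested had more libraries under E2 (TGFA site 3 and DIP2C sites 48 and 75, each 4 of 4 against 0 of 4), which is 5.08%, beside 9.34% of all regions tested. The ligand-dependent class used this contrast, so nothing is read from it. With 1 library left out, 3 to 7 of the sites and 2732 to 3810 of all regions were past the unadjusted limit.

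For D538G against wild type under DMSO, 3 of 49 sites tested had more libraries in D538G, or 6.12%, beside 3.57% of all regions. They were DIP2C site 48 (6 of 6 against 0 of 4), DIP2C site 13 (5 of 6 against 0 of 4; chr10:384227-385214) and TGFA site 14 (6 of 6 against 1 of 4). DIP2C site 13 is named because of this count. With 1 library left out, 2 to 6 of the sites and 923 to 2511 of all regions were past the limit. Those above 1.5 times the full count were without wild-type clone 1 replicate 2 DMSO (5 sites, 1865 regions) and without D538G clone 3 replicate 2 DMSO (6 sites, 2511 regions). Under E2, 2 of 65 sites had fewer libraries in D538G (TGFA site 3, 1 of 6 against 4 of 4, and DIP2C site 71, 0 of 6 against 3 of 4), beside 0.89% of all regions, and 0 had more, beside 0.325%. With 1 library left out, 1 or 2 sites had fewer and 0 had more, while the regions past the limit in either direction, 434 with all libraries, ran from 330 to 945. Those above 1.5 times the full count were without D538G clone 3 replicate 1 E2 (945), clone 2 replicate 2 E2 (852), clone 1 replicate 1 E2 (788) or clone 3 replicate 2 E2 (674). For E2 against DMSO in D538G, 0 of 67 sites passed the unadjusted limit with Fisher's test, beside 0.02% of all regions. Those 9 regions became 426 without D538G clone 2 replicate 2 E2 and 481 without D538G clone 3 replicate 2 E2, so this background depends on single libraries, and 0 of the sites passed with any 1 library left out. These comparisons share their wild-type or D538G libraries with each other. With so few sites, these shares were not tested against the background.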

How the data were processed

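The data were 20 anti-FLAG ChIP-seq peak lists in narrowPeak layout, 1 per library, so peaks were called per library. The 2 input samples were not used here, and which control each list was called against is not given in the sources used here, although 4 lists have Input in their peak names. The submitters' processing notes name Bowtie, MACS2, DESeq2 and hg19. The authors deposited for each peak a signal value and a −log10 p and −log10 q. The deposited signal value served only to rank peaks within a list, and depth is unknown. Peaks reach position 249200792 on chromosome 1. No genome or annotation of that build was used, so no sequence is given.

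The 356467 peaks on chromosomes 1 to 22, X and Y were merged where they overlap by at least 1 bp. A library binds a site where it has a peak in it, and its strongest peak there, by signal value, gives rank, width and summit. The members, classes and lists were chosen with earlier results of these data known. Named sites were the always-bound ones, up to 5 ligand-dependent sites per window (by wild-type E2 libraries, fewest wild-type DMSO libraries, then mean percentile with E2) and up to 2 per window by number of libraries among sites bound in wild type under both treatments or in D538G only.

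Counts of neighbours (15 tests) and log2 widths (12 tests) were compared by exact two-sided permutation tests with Benjamini-Hochberg adjustment at 0.05, and regions by Fisher's exact test where at least 2 of the libraries compared had a peak. The labels do not say whether replicates were separate cultures, so p-values measure the spread between these libraries. Each library was taken as a unit, so they do not measure the spread between clones. E2 and DMSO libraries of 1 clone and replicate number were taken as pairs because they share a cell line. The correlation of their deviations from the group means, over 52609 regions, ran from −0.37 to 0.39 in the 10 pairs. Groups of different genotype share only a replicate number. Alternatives were a −log10 q of at least 20, the 1000 strongest peaks of each list, summit clusters within 200 bp, regions merged at 50 bp, scaling by list length, another choice of peak, all bases covered, a replicate block and each library left out. Leaving out the short lists or the D538G clone 2 replicate 1 pair, width over the list's median widths within a replicate number, shared bases without the short lists and unadjusted region counts with each library left out were added after seeing the data. Fisher's test and the permutation test of a difference in means were tried on simulated data. Merging was checked against bedtools on the peaks themselves. Software was Python 3.11.15, SciPy 1.17.1, pandas 2.3.3 and, for plots, Matplotlib 3.10.9.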

Additional observations from a re-analysis of the deposited data

Results flagged for a closer look

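Of 48 combinations of group, locus and measure examined with Dixon's test at the 95% level, 9 held a library outlying in its group. Chance alone gives about 1 in 20. Several of the 9 fell in the same libraries, and measures of 1 library are not independent.

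D538G clone 1 replicate 2 DMSO, with 50382 peaks, stood apart in 4 measures. It bound 13 TGFA neighbours, where the next library of its group bound 5. Its TGFA always-bound peak was 2537 bp wide, where the next was 1352 bp. The same peak was at the 90.3th percentile of its list, where the next lowest was at 98.1. Its strongest NFIC peak had its summit at chr19:3387978, where the nearest of the other 5 libraries had it at chr19:3390129.

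D538G clone 3 replicate 2 E2, with 49223 peaks, bound 40 DIP2C neighbours, where the next library bound 16. Its DIP2C always-bound peak was 2456 bp wide, where the next was 1251 bp. Wild-type clone 1 replicate 2 DMSO, with 29118 peaks, bound 9 DIP2C and 18 NFIC neighbours, where the next wild-type DMSO library bound 1 and 2. In D538G clone 3 replicate 1 E2 the NFIC always-bound peak was at the 97.0th percentile, where the next lowest of its group was at 99.2. The part of list length in these values was not tested.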

How the results depend on the processing

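Over all alternatives, 478 values kept their direction and side of the threshold, 48 changed sign, 18 lost a call and 3 gained one. The 18 lost calls were those on the width of the TGFA and NFIC peaks under DMSO, D538G against wild type. On the log2 scale these differences (1.43 and 1.59) were 1.52 and 1.93 for all bases covered in the site, 0.71 and 0.86 for width over the list's median, and 0.87 and 0.84 without the 2 short lists. They were 1.85 and 2.29 within replicate 1 and 1.01 and 0.88 within replicate 2. With the replicate block, genotype permuted within replicate number, they stayed at 1.43 and 1.59 (adjusted exact permutation p = 0.06), and the block changed no other call. At both sites the observed split was the most extreme the block allows, so this lost call does not measure dependence on replicate number. With libraries left out 1 at a time the differences ran from 1.16 to 1.72 and from 1.33 to 1.88. The calls were lost without any of 3 wild-type DMSO libraries, each time at the smallest exact p the reduced design allows. The gained calls were at DIP2C, where the ranges were 0.74 to 1.35 (D538G against wild type, DMSO), −0.46 to −0.11 (E2 against DMSO, D538G) and −1.51 to −0.85 (D538G against wild type, E2). The cause was not tested.

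The values that changed sign had not passed the threshold in any case. For widths in D538G, E2 against DMSO became 0.22 at DIP2C and 0.14 at NFIC with the peak of the highest −log10 p, and 0.13 and 0.14 with all bases covered. It became 0.024 at NFIC within replicate 1, −0.17 at TGFA and 0.10 at DIP2C within replicate 2, and −0.036 at TGFA without the D538G clone 2 replicate 1 pair. D538G against wild type under E2 became 0.063 at TGFA with all bases covered, and 0.67 at TGFA and 0.10 at NFIC within replicate 1. With 1 library left out, NFIC ran from −0.18 to 0.016 (E2 against DMSO, D538G) and TGFA from −0.34 to 0.11 (D538G against wild type, E2).

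For neighbours bound in D538G, E2 against DMSO at TGFA became −0.33 with a −log10 q of at least 20, −0.83 with the 1000 strongest peaks, −0.22 per 1000 peaks, −3.67 within replicate 2 and −0.40 without the D538G clone 2 replicate 1 pair. At DIP2C it became 1 with the q limit, 0.17 with the 1000 strongest peaks, 0.042 per 1000 peaks and 6.67 within replicate 1, and at NFIC 0.0017 per 1000 peaks and 3.67 within replicate 1. D538G against wild type under E2 became 3.83 at TGFA, 8 at DIP2C and 4 at NFIC within replicate 1, and 0.10 at DIP2C per 1000 peaks. Under DMSO it became −0.099 at NFIC per 1000 peaks. With 1 library left out, E2 against DMSO in D538G ran from −1.20 to 1.77 at TGFA, −5.63 to 3.77 at DIP2C and −6.83 to 0.50 at NFIC, and D538G against wild type under E2 from −2.20 to 0.20 at TGFA and −6.55 to 3.50 at DIP2C.

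The share of ligand-dependent neighbours bound in D538G with DMSO (56.9%) moved to 55.6% with a stricter class (3 sites), 43.1% with a looser one (36 sites), 66.7% with the q limit and 54.2% with summit clusters. The number of regions called by Fisher's exact test after adjustment was 0 under every alternative run, which says nothing about stability, since so few libraries could hardly pass; the unadjusted counts moved with single libraries. Lists of 45 to 54903 peaks with no read depth limit every count of bound sites: a missing peak does not show that a site was unbound.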

Other observations

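Across the genome, 27 regions had a peak in both wild-type DMSO replicate 1 lists and 56 in either. By number of lists, 15 regions were in 20 lists, 21 in 19 and 297 in 18, so the number of always-bound sites depends on 2 lists that together hold fewer peaks than any other list alone.

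The 3 windows differed in how densely peaks were called. TGFA held 7.31 sites per 100 kb (260 kb), DIP2C 18.3 (420 kb) and NFIC 36.0 (150 kb). Sites seen in 1 library numbered 7 of 19 at TGFA, 39 of 77 at DIP2C and 20 of 54 at NFIC. Together these were 66 of 150, a share near that of the genome, where 41003 of 93612 regions were in 1 list. The densities and counts rest on window limits chosen with the results known and were not tested.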
